A study of Mus musculus with 14 samples.

Results

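Serpins are a superfamily of proteins that share one fold. Of the 23682 genes measured in all 14 kidneys, 37 had a symbol that begins with Serpin, after symbols ending in -ps or Rik were left out. They were 17 genes of clade a, 11 of clade b, 2 each of clades e and f, and 1 each of clades c, d, g, h and i. A filter on low read numbers left 31 of the 37 in the tests. Serpina1c, Serpina3k, Serpinb10, Serpinb12, Serpinb1c and Serpinb6c did not pass it.

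Whole kidneys of mice were profiled by bulk RNA sequencing in 3 groups. The i-TERTci mice carried 2 transgenes, actin-rtTA and tetop-TERTci, each heterozygous, so that doxycycline in the drinking water switched on TERTci, a catalytically inactive telomerase reverse transcriptase, in all tissues. Once their urinary protein had passed 10 mg/mL, at about day 15, they received an intraperitoneal injection every day of DMSO (5 mice, with kidneys taken after 29, 29, 29, 38 and 31 days of doxycycline) or of GSK2830371, an inhibitor of the phosphatase WIP1, which Ppm1d encodes (5 mice, 31, 49, 49, 49 and 28 days). The controls were 4 actin-rtTA+ mice without the TERTci transgene, which drank doxycycline for 30 days; the labels record no injection for them. Doxycycline and the actin-rtTA transgene were thus common to every group. Age and sex are not in the labels. Because the transgene is active everywhere, changes in kidney RNA cannot be tied to 1 cell type by its design, and in RNA from a whole organ fewer cells of a type and less RNA per cell cannot be told apart.

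Most serpins inhibit serine proteases, and some inhibit cysteine proteases. The protease cuts an exposed reactive loop of the serpin, the loop inserts into the body of the molecule, and the enzyme is trapped in a covalent complex that receptors of the low density lipoprotein receptor family clear. Clade a holds mainly secreted plasma proteins, among them the antitrypsin and antichymotrypsin families and 2 hormone carriers that inhibit no protease. Clade b proteins act inside cells. The remaining clades hold regulators of clotting, fibrinolysis and complement, and a collagen chaperone.

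Of the clade a genes in these data, 15 were placed in 1 cluster that spans 799.5 kb of chromosome 12 (GRCm38). Serpina7 is on the X chromosome. Serpina3h was not placed, because its gene identifier had no match in the annotation used, which holds that symbol under another identifier. The antichymotrypsin-like Serpina3 genes of that cluster arose by duplication, and promoter sequences of 4 of them are shown, Serpina3n and Serpina3c because their windows are close in sequence, and Serpina3i and Serpina3g because they hold the same NF-kB letters as Serpina3n. They are the 250 bases before the RefSeq start of Serpina3n (chr12:104406458-104406707), Serpina3c (chr12:104153873-104154122, minus strand), Serpina3i (chr12:104262872-104263121) and Serpina3g (chr12:104235897-104236146), build GRCm38.p6, printed 5′ to 3′ on the strand of the gene. Capitals mark matches to 3 of the letter patterns searched on both strands: the NF-kB pattern (GGG, then any 2 bases, then TTTCC), the STAT pattern (TTCNNNGAA) and the TATA box (TATAAA). No marked match overlaps another.
Serpina3n: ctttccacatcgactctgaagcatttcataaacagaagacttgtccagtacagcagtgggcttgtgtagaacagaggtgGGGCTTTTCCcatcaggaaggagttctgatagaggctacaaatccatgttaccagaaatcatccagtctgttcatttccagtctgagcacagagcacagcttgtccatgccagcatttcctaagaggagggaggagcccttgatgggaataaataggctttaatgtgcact
Serpina3c: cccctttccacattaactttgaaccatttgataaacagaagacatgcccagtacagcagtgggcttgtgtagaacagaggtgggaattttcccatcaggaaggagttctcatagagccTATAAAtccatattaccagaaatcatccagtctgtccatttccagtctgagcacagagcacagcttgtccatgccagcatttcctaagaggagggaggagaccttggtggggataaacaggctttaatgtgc
Serpina3i: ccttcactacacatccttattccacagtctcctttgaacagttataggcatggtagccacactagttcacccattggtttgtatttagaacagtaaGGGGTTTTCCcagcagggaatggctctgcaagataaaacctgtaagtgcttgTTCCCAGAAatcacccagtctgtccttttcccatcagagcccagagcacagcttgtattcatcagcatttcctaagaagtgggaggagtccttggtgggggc
Serpina3g: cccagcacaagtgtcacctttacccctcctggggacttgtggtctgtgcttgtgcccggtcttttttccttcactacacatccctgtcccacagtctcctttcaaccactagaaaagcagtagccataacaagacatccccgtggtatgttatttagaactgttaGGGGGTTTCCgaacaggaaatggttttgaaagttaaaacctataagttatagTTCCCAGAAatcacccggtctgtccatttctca
The Serpina3n and Serpina3c windows were identical at 91.6% of positions in a global alignment that allows gaps, Serpina3i and Serpina3n at 71.2%, and Serpina3g and Serpina3n at 58.8%. Over all pairs of clade a promoters aligned in this way identity ran from 53.2% to 93.6%. Identity and distances depend on the start used. The Serpina3i window ends directly before the annotated gene start at 104263122, and the Serpina3g window ends well before that at 104236245. The NF-kB letters stood 171 bases before the start in Serpina3n, 154 in Serpina3i and 85 in Serpina3g. The STAT letters stood at 102 in Serpina3i and at 33 in Serpina3g, and the TATA letters at 132 in Serpina3c. From NF-kB to STAT letters the spacing was the same in Serpina3i (window bases 97 and 149) and Serpina3g (166 and 218). Among 32851 mouse promoters of this length, 464 (1.41%) held the NF-kB letters, 7.02% the STAT letters and 12.4% the TATA letters. C/EBP letters (TTGCNNAA, 9.56% of promoters) and AP-1 letters (TGANTCA, 6.75%) had no match in these 4 windows. A promoter entry existed for 29 members (34 promoters), and Serpina3g, Serpina3i and Serpina3n alone of them held the NF-kB letters. Such a match is a string of letters and not a measured binding site. Serpina10, Serpina3h, Serpina3k, Serpina3m, Serpina6, Serpinb1a and Serping1 had no entry.

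Reads in genes numbered 48.5 M to 64.6 M (M, 1e6 reads) in the control libraries, 47.2 M to 48.8 M in the DMSO libraries and 48.4 M to 49.4 M in the GSK2830371 libraries. Serpin reads were 0.0772% to 0.111% of them in the controls, 0.103% to 0.195% with DMSO and 0.128% to 0.153% with GSK2830371. Mitochondrial genes took 14.4% to 24.2% of control reads, against 4.95% to 9.52% and 5.07% to 8.35%, and the part of this difference in the results was not tested. The label check showed Tert at a mean of 146 normalised reads in controls, 1535 with DMSO and 1097 with GSK2830371. Ppm1d stood at 901, 549 and 707. Xist and Ddx3y reads marked all 4 controls as Xist-positive, DMSO replicates 2 and 5 as Xist-positive and 1, 3 and 4 as Y-positive, and GSK2830371 replicates 2, 3 and 4 as Xist-positive and 1 and 5 as Y-positive. The 3 Xist-positive GSK2830371 kidneys were also the 3 taken at 49 days, so sex and duration cannot be told apart within that group. Kidneys of 31 days or fewer, used as a subset below, thus include only replicates 1 and 5 of the GSK2830371 group, both Y-positive. In that subset a GSK2830371 difference from the controls, all Xist-positive, cannot be told apart from sex. Among Xist-positive kidneys the DMSO kidneys were taken at 29 and 31 days and the controls at 30. A GSK2830371 difference from either group among Xist-positive kidneys therefore cannot be told apart from duration. Nothing in the labels says how animals were assigned, and p-values judge a group difference against the spread between these kidneys.

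Against the controls, i-TERTci kidneys injected with DMSO had 11 serpins higher and 1 lower, out of 31 tested (38.7%); of all 18810 genes tested 48.3% passed the same limma test, 25.2% higher and 4337 genes (23.1%) lower. With GSK2830371, 15 serpins were higher and 2 lower (54.8% of 31), where 46.3% of all genes passed, 24.3% higher and 22.1% lower. The shares of gene lists given further on, DMSO first, are to be read beside the 48.3% and 46.3%. Both comparisons use the same 4 control libraries. With reads scaled to library totals the median change of all genes moved from 0.03 to 0.34 with DMSO and from 0.01 to 0.34 with GSK2830371, and 72.4% and 74.3% of called genes were higher, against 52.2% and 52.4%; the changes given here are relative to the typical gene. The median log2 change over the 31 serpins was 0.71 with DMSO and 0.68 with GSK2830371, and over all genes tested 0.03 and 0.01. These counts describe the members that passed the filter, and a gene that is near 0 in controls could pass it only by being higher elsewhere. All libraries of a group lay beyond all controls for 8 serpins with DMSO (25.8%, all genes 38.8%) and for 12 with GSK2830371 (38.7%, all genes 40.3%).

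**Figure D1:**
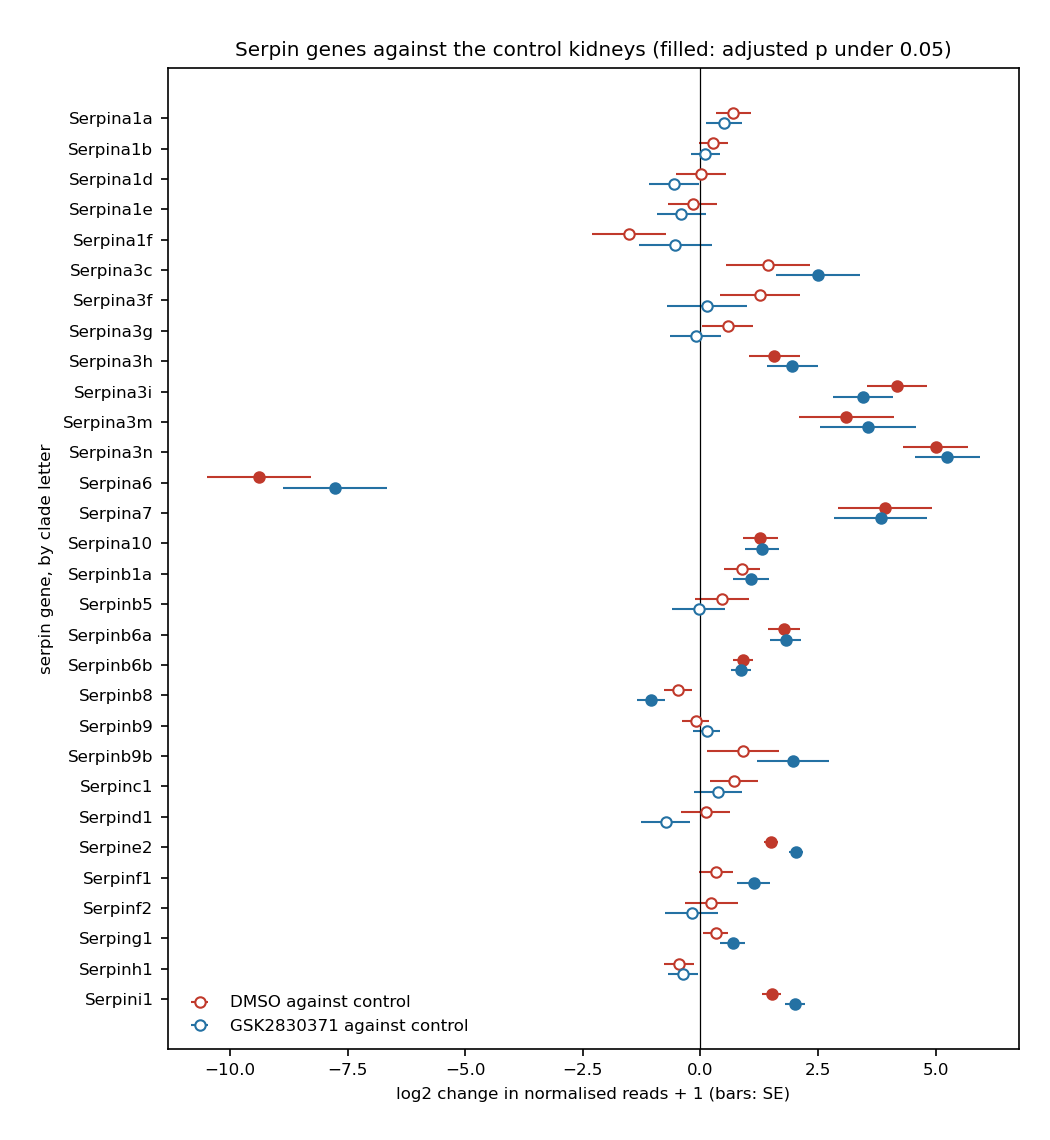
The log2 change in normalised reads + 1 against the 4 controls (x axis, bars are SE) is plotted for 30 tested serpins (y axis, by clade), in red for DMSO (n = 5) and blue for GSK2830371 (n = 5). Filled points have an adjusted p under 0.05; Serpina6 lies far to the left at -9.39 and -7.77, and Serpina3n far to the right at 5.0 and 5.25.

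Corrected for exon length, Serpina6 was the leading serpin transcript in the controls and in no i-TERTci kidney. Per kilobase of exon, Serpina6 stood at 8240.5 normalised reads in the controls, ahead of Serpina1f at 4305, Serping1 at 3173, Serpinf2 at 2703 and Serpinh1 at 2435. With DMSO the order of the group means per kilobase was Serpina3n at 7261, Serpinf2 at 4234, Serping1 at 4126, Serpina1f at 2401 and Serpinh1 at 1936, and Serpina6 stood at 14.7. With GSK2830371 the mean of Serpina3n was 6945 and that of Serpina6 109.1. These means join kidneys that differ. In single kidneys Serpina6 led per kilobase in all 4 controls, and Serpina3n led in 2 of 5 with DMSO and 3 of 5 with GSK2830371. The other leaders were Serping1, Serpinf2 and Serpina1f, in DMSO replicates 2, 4 and 5, and Serpina1f in GSK2830371 replicates 3 and 4. Without DMSO replicate 3 the DMSO mean of Serpina3n was 4826 per kilobase. By the DMSO medians Serpina3n was at 4701, Serping1 at 3923 and Serpinf2 at 3574. As a share of all reads on serpins, not corrected for length, Serpina6 took 14.9% to 32.7% in controls and at most 0.0705% with DMSO and 1.06% with GSK2830371. By this share Serpina1f was ahead of Serpina6 in control replicates 1 (26.1% against 21.8%) and 4 (25.1% against 14.9%), and behind it in replicates 2 and 3. Serpina3n took 0.391% to 0.889% in controls, 7.29% to 41.2% with DMSO and 6.29% to 28.8% with GSK2830371.

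Among the hormone carriers of clade a, Serpina6 fell and Serpina7 rose. Serpina6 encodes corticosteroid-binding globulin, which carries glucocorticoids in plasma. Normalised reads, in the order of the replicates, were 12535, 21065, 17230.5 and 7216 in the controls. They were 9.67, 48.6, 38, 4.23 and 29 with DMSO and 53, 8.71, 695, 192 and 11.7 with GSK2830371. Every i-TERTci kidney was below every control, and GSK2830371 replicate 3 was the highest of the 10. The log2 change of Serpina6 was -9.39 ± 1.11 (SE) with DMSO (limma adjusted p = 2.59e-05) and -7.77 ± 1.11 with GSK2830371 (adjusted p = 0.000118). In Xist-positive kidneys alone the changes were -8.44 (adjusted p = 0.00728) and -6.93 (adjusted p = 0.00675). No 100-base stretch of its transcript is shared with another gene.

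Serpina7 encodes thyroxine-binding globulin. It stood at 1.1, 5.57, 10 and 3.53 normalised reads in controls. The values were 238, 171, 193, 8.46 and 37.3 with DMSO and 132, 271, 12.8, 33.8 and 117 with GSK2830371. DMSO replicate 4 lay within the control range, and the GSK2830371 kidneys all lay above it. Its log2 change was 3.93 ± 0.99 with DMSO (adjusted p = 0.00503) and 3.83 ± 0.99 with GSK2830371 (adjusted p = 0.0062).

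Of the 12 genes listed for steroid and thyroid hormone handling, 3 rose and 6 fell with DMSO, and 3 rose and 3 fell with GSK2830371 (75% and 50% called). Hsd11b2, which inactivates glucocorticoids in the distal nephron, fell, with log2 changes of -2.89 (adjusted p = 0.000183) and -2.25. Fkbp5, a known target of the glucocorticoid receptor, rose by 2.43 (adjusted p = 0.000267) and 2.83. Dio1, which activates thyroid hormone, fell, at -3.56 (adjusted p = 0.000372) and -2.99. Of 12 proximal tubule markers, 6 fell and 1 rose with DMSO, and 7 fell and 0 rose with GSK2830371 (58.3% called in each). Their summed level was 1530469 to 2255753 normalised reads in controls, 276188 to 1673627 with DMSO and 180420.3 to 879641 with GSK2830371. Falls were not particular to that segment. Of 10 distal nephron and collecting duct markers 6 fell and 0 rose in each comparison (60% called), though their summed level was not below that of the controls. Of 7 urothelial markers 5 and 6 fell and 1 rose (85.7% and 100% called). Of 10 endothelial markers 5 and 4 fell and 2 and 3 rose (70% called in each). The part of these cell types in the Serpina6 result was not tested.

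**Figure D2:**
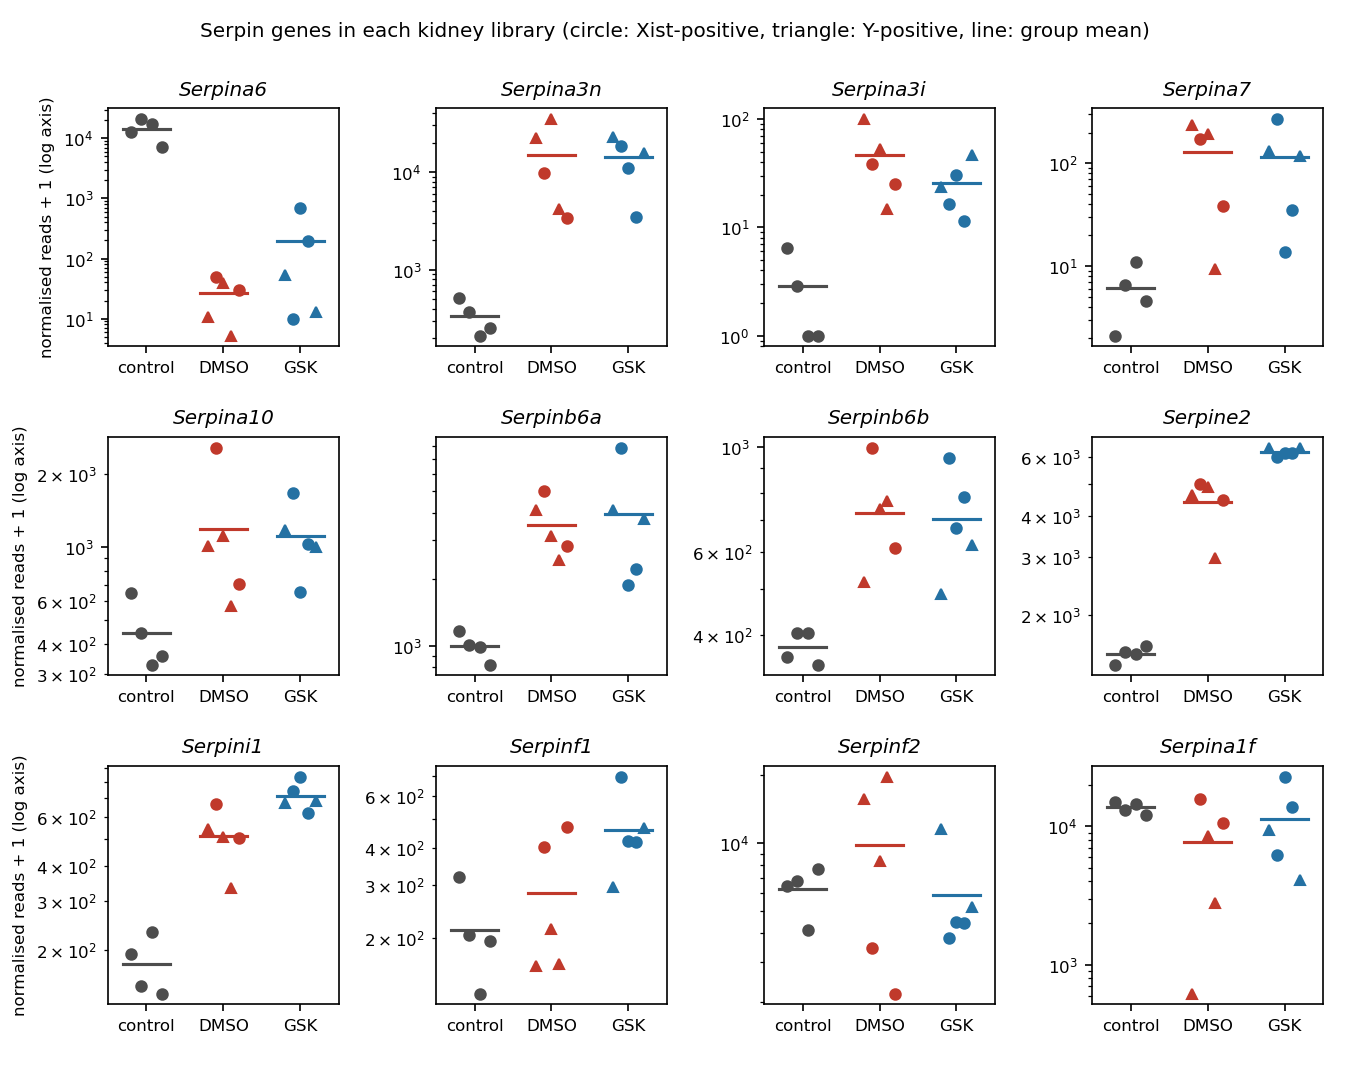
Normalised reads + 1 (y axis, log scale) of 12 serpins are shown for each kidney by group (x axis), with circles for Xist-positive and triangles for Y-positive libraries and a line at the group mean. Serpina6 is 4.23 to 695 in the 10 i-TERTci kidneys against 7216 to 21065 in controls, and Serpine2 is the one of the 12 whose GSK2830371 and DMSO kidneys do not overlap.

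Of the antichymotrypsin-like genes, Serpina3n, Serpina3i, Serpina3m and Serpina3h rose in both comparisons. Serpina3n, the secreted mouse relative of human alpha-1-antichymotrypsin and a marker of the acute-phase response, stood at 510.3, 367, 211 and 254 normalised reads in controls. It reached 22529.8, 9703, 35095, 4230.0 and 3379 with DMSO and 22997, 18402, 10975, 3444 and 15852 with GSK2830371. Both i-TERTci groups lay wholly above the controls and spread over a wide range themselves. The log2 change was 5.0 ± 0.69 with DMSO (adjusted p = 8.84e-05) and 5.25 ± 0.69 with GSK2830371 (adjusted p = 6.97e-05). Only 0.204% of its 100-base windows occur in another transcript.

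Serpina3i had 0 to 5 reads in any control library and 12 to 82 in any i-TERTci library. It rose by 4.18 ± 0.64 with DMSO (adjusted p = 0.000106) and 3.46 ± 0.64 with GSK2830371 (adjusted p = 0.000523), with no overlap; 2.25% of its 100-base windows are shared with Serpina3f, Serpina3g and Serpina3h. Serpina3m had 3 reads over all 4 controls, all of them in replicate 3. Its summed normalised level was 38-fold that of the controls with DMSO (counting interval 12.7 to 186) and 23.7-fold with GSK2830371 (7.87 to 117); these intervals cover counting error only. DMSO replicates 4 and 5 held 1 and 2 reads of it, and replicates 1 and 3 held 51 and 90. The log2 change of Serpina3m was 3.10 (adjusted p = 0.0202) and 3.56 (adjusted p = 0.0101). With DMSO it was 1.83 (adjusted p = 0.14) in Xist-positive kidneys alone and 2.11 (adjusted p = 0.141) with Xist as a covariate, and the adjusted p was 0.0503 to 0.0533 without control replicate 1, 2 or 4 or DMSO replicate 3. Serpina3m shares 6.09% of its 100-base windows with Serpina3k. Serpina3h rose by 1.57 (adjusted p = 0.0236) and 1.96 (adjusted p = 0.0075), and its DMSO change was 0.82 (adjusted p = 0.369) in the Xist-positive subset and 0.93 (adjusted p = 0.193) with Xist as a covariate. Without control replicate 3 or 4 or DMSO replicate 1 or 3 the DMSO change of Serpina3h was 1.28 to 1.47 (adjusted p 0.0506 to 0.0837). The part of the Serpina3h transcript that is shared with other genes was not computed.

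Serpina3c passed the test with GSK2830371. It had 0 to 6 reads in a control library, 1 to 37 with DMSO and 9 to 51 with GSK2830371. The log2 change was 1.43 ± 0.90 (95% interval -0.47 to 3.33, adjusted p = 0.2) with DMSO, where DESeq2 called it (2.24, adjusted p = 0.0477), and 2.49 ± 0.90 (adjusted p = 0.0324) with GSK2830371. Without control replicate 3, the library with 0 reads of it, the second value was 1.89 (adjusted p = 0.113), and it also missed the threshold without control replicate 2 or GSK2830371 replicate 1 or 4 (2.11 to 2.39, adjusted p 0.059 to 0.0803), with Xist as a covariate (2.06, adjusted p = 0.0913) and in kidneys of 31 days or fewer (2.92, adjusted p = 0.0611). Serpina3g, whose promoter window holds the NF-kB and STAT letters, changed by 0.58 ± 0.54 (interval -0.56 to 1.72) and -0.10 ± 0.54 (interval -1.24 to 1.04), and neither value passed. Serpina3f, at 1.26 ± 0.85 and 0.14 ± 0.85, did not pass either, but DESeq2 called its DMSO change, at 1.97 (adjusted p = 0.0347). DMSO replicate 1 held the highest level of both, 423 normalised reads of Serpina3g and 421 of Serpina3f. For Serpina3g the 5 Xist-positive i-TERTci kidneys lay between 39.7 and 78.8 and the 5 Y-positive ones between 78.9 and 423. The controls, all Xist-positive, lay between 36.5 and 183.

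The acute-phase and IL-6 response list, to which Serpina3n is related by function but which does not contain it, had 14 of 18 tested genes higher with DMSO and 12 with GSK2830371, none lower (77.8% and 66.7%). Lcn2, which binds bacterial siderophores and is made by injured tubules and neutrophils, rose by 6.50 (adjusted p = 1.23e-05) and 6.76. Socs3, the feedback inhibitor of STAT3 signalling, rose by 3.75 (adjusted p = 0.00013) and 3.01. The IL-6 family cytokine Lif rose by 4.14 (adjusted p = 0.00041) and 3.0. Neutrophil markers, a list that shares Lcn2 with the acute-phase list, were higher too, 12 of 13 in each group (92.3%). Their summed level was 315 to 1020.5 normalised reads in controls, 19920.5 to 108908 with DMSO and 10964 to 94021 with GSK2830371. The part of neutrophils in the Serpina3 results was not tested.

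The antitrypsin-like genes did not pass the test in either comparison. Serpina1b, the most abundant of Serpina1a to Serpina1e, stood at 689 to 861 normalised reads in controls, 448 to 1456 with DMSO and 602 to 1229.6 with GSK2830371. Its log2 change was 0.28 (interval -0.37 to 0.93) with DMSO and 0.10 (interval -0.55 to 0.75) with GSK2830371. Serpina1a changed by 0.70 (adjusted p = 0.137) and 0.50, and passed with DMSO, at 1.01, without DMSO replicate 5 (adjusted p = 0.0177) and under total-read scaling (adjusted p = 0.0364). Serpina1a to Serpina1e share 14.4% to 58.5% of their 100-base windows with one another, so their separate values are uncertain. Serpina1f shares none. It is high in control kidney, at 14985, 13144, 14571 and 12145 normalised reads. DMSO kidneys held 621, 15777, 8476, 2796 and 10569, and GSK2830371 kidneys 9463, 6189, 22715, 13747 and 4116. The 5 Y-positive i-TERTci kidneys lay between 621 and 9463 and the 5 Xist-positive ones between 6189 and 22715, and all 4 controls were Xist-positive. The log2 change of Serpina1f was -1.52 ± 0.78 (adjusted p = 0.123) with DMSO and -0.53 ± 0.78 with GSK2830371; with Xist as a covariate the DMSO value was -0.50.

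Control replicate 3 stood apart for some liver-type transcripts and not for others. It was the lowest control for Serpinc1, at 46.1 normalised reads, and for Serpinf2, at 4148. It held 2025 normalised reads of Alb, against 185 to 344 in the other controls, 204 of Ahsg, 56.2 of Serpina1c and 25.1 of Serpina3k, all higher than in any other kidney. Of 9 tested hepatocyte markers 5 were higher in each i-TERTci group and none lower (55.6% called in each). Serpinc1 is on this list and did not pass. The 5 included Fgb and Apob; Alb did not pass, at a log2 change of -1.27 (adjusted p = 0.155) with DMSO. Of 8 adrenal genes Cyp11b1, Cyp11b2 and Nr5a1 were not among the genes measured, and 3 of the other 5 were tested (33.3% and 66.7% called). Mc2r, the ACTH receptor, rose by 1.96 (adjusted p = 0.0101) and 2.22, Hsd3b1, a steroid-forming enzyme, changed by 0.34 (adjusted p = 0.618) and rose by 1.37 (adjusted p = 0.0459), and Star, at 0.46 and 0.10, did not pass. The 5 summed to 58.9 to 93.5 normalised reads in controls, 100.4 to 148 with DMSO and 97.0 to 220.3 with GSK2830371. The part of other tissue in the clade a values was not tested.

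Serpina10, the protein Z-dependent inhibitor of clotting factor X in its active form, rose in both groups. Controls held 643, 443, 327 and 353 normalised reads. DMSO kidneys held 1009.6, 2568, 1110.4, 569 and 703, and GSK2830371 kidneys 1177, 1672, 653, 1029 and 1003. DMSO replicate 4 lay below the highest control, and the lowest GSK2830371 kidney just above it. Serpina10 rose by 1.27 ± 0.37 with DMSO (adjusted p = 0.0109) and 1.31 ± 0.37 with GSK2830371 (adjusted p = 0.00957). Serpina10 and Serpina6 are neighbours, 15.2 kb apart on the same strand at one end of the cluster, and moved in opposite directions.

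**Figure D3:**
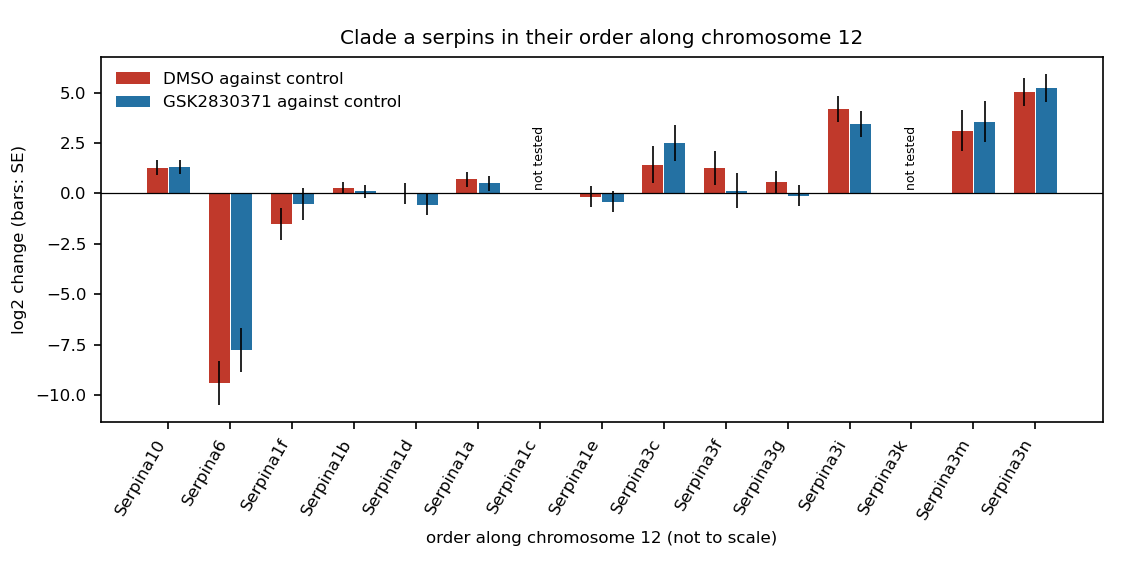
Bars give the log2 change against the controls (y axis, lines are SE) of the clade a genes in their order along chromosome 12 (x axis, not to scale), red for DMSO and blue for GSK2830371. Serpina10 at 1.27 and 1.31 stands beside Serpina6 at -9.39 and -7.77, and Serpina3i, Serpina3m and Serpina3n stand high at the other end.

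In clade b the clearest changes were in the Serpinb6 pair, which inhibit serine proteases inside cells. Serpinb6a stood at 1171, 1006, 985 and 823 normalised reads in controls. It stood at 4097, 4995, 3152, 2447 and 2832 with DMSO and at 4091, 7849, 1875, 2235 and 3740.2 with GSK2830371. No i-TERTci kidney reached down to the controls. Serpinb6a rose by 1.78 ± 0.33 (adjusted p = 0.000539) and 1.81 ± 0.33 (adjusted p = 0.000523). Exons of 3 genes on the opposite strand, Nqo2, Ripk1 and 1110046J04Rik, overlap those of Serpinb6a, and whether counting used strand is not given in the sources used here. Opposite-strand exons also overlap those of Serpinb9b (Gm36099), Serpinc1 (Zbtb37) and Serpina1c (B430119L08Rik). Serpinb6b, free of such overlap, stood at 358, 403, 403 and 346 in controls. It stood at 516, 994, 737, 768 and 609.5 with DMSO and at 489, 947, 671, 782 and 618 with GSK2830371, again without overlap. It rose by 0.91 ± 0.21 (adjusted p = 0.00233) and 0.86 ± 0.21 (adjusted p = 0.00363). In kidneys of 31 days or fewer the GSK2830371 value of Serpinb6b was 0.56 (adjusted p = 0.107).

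Serpinb1a, the cytosolic inhibitor of neutrophil elastase, cathepsin G and proteinase-3, stood at 474, 495, 481 and 369.6 normalised reads in controls. The values were 1597, 818, 1256, 558 and 452 with DMSO and 1338, 1534, 701, 467 and 1162 with GSK2830371. One kidney of each i-TERTci group lay within the control range, DMSO replicate 5 and GSK2830371 replicate 4. Serpinb1a changed by 0.89 ± 0.38 with DMSO (interval 0.08 to 1.69, adjusted p = 0.0638) and 1.07 ± 0.38 with GSK2830371 (adjusted p = 0.0301). The DMSO value passed under edgeR (adjusted p = 0.0337), DESeq2 (adjusted p = 0.0148) and total-read scaling (1.21, adjusted p = 0.0102), in kidneys of 31 days or fewer (1.04, adjusted p = 0.0209), and, at 1.03 to 1.12, without DMSO replicate 4 or 5; without GSK2830371 replicate 4 it was 0.89 (adjusted p = 0.0385). The GSK2830371 value missed the threshold in 8 of 25 alternatives, among them leaving out control replicate 1, 2 or 4 or GSK2830371 replicate 1, 2 or 5 (0.90 to 1.11, adjusted p 0.0514 to 0.0813). The other 2 were Xist as a covariate (0.79, adjusted p = 0.0918) and Xist-positive kidneys alone (0.83, adjusted p = 0.0896). Of the 6 tested genes in the list of neutrophil and lymphocyte granule proteins, 3 rose with DMSO (50%). They were Prtn3 and Elane, which encode proteinase-3 and neutrophil elastase, by 3.78 (adjusted p = 0.00921) and 4.05 (adjusted p = 0.0355), and the peroxidase gene Mpo by 6.75 (adjusted p = 0.00228). With GSK2830371 they rose by 3.76, 3.88 and 6.47, and Gzmb and Prf1, of cytotoxic lymphocytes, fell, at -1.46 and -1.32 (83.3% called). The neutrophil marker sums given above were higher in both i-TERTci groups. Whether they followed Serpinb1a from kidney to kidney, and their part in its change, was not tested.

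Serpinb8, an intracellular inhibitor of furin-like proteases, was the one clade b gene that was lower. Controls held 885, 1209.7, 505 and 1162 normalised reads, DMSO kidneys 549, 644, 709, 495 and 849, and GSK2830371 kidneys 257, 510.0, 362, 773 and 399. Control replicate 3 lay inside both i-TERTci ranges. Its change was -0.48 ± 0.30 (interval -1.13 to 0.16) with DMSO, or -0.76 (adjusted p = 0.047) without control replicate 3, and -1.05 ± 0.30 (adjusted p = 0.0105) with GSK2830371; the latter was -0.72 (adjusted p = 0.0985) with reads scaled to library totals and -0.75 (adjusted p = 0.0876) among Xist-positive kidneys. Serpinb9b had 0 to 7 reads in a control and 1 to 33 with GSK2830371, a log2 change of 1.97 ± 0.77 (adjusted p = 0.0453) that was lost in 9 of 25 alternatives, among them leaving out control replicate 1, 3 or 4 or GSK2830371 replicate 1, 2, 4 or 5 (1.46 to 2.17, adjusted p 0.0583 to 0.158), Xist as a covariate (1.99, adjusted p = 0.07) and Xist-positive kidneys alone (1.40, adjusted p = 0.216). Serpinb9, the granzyme B inhibitor, at -0.10 (interval -0.70 to 0.50) and 0.13 (interval -0.47 to 0.73), and Serpinb5, at 0.46 and -0.04, did not pass in either comparison.

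Lysosomal cysteine proteases, which some clade b serpins inhibit, had 7 of 10 tested members higher with DMSO and 8 with GSK2830371 (70% and 80%), none lower. Ctsl rose by 3.28 (adjusted p = 5.85e-06) and 3.31, Ctss by 3.33 (adjusted p = 0.000123) and 3.64, and Ctsc, which activates granule serine proteases, by 2.70 (adjusted p = 5.77e-06) and 2.68.

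Of the regulators of fibrinolysis, Serpine2 and Serpini1 rose in every i-TERTci kidney. Serpine2 encodes protease nexin-1, a cell-surface inhibitor of thrombin and plasminogen activators. Its normalised reads were 1414, 1541, 1517 and 1610.3 in controls. They were 4624, 4982, 4893, 2970.1 and 4468 with DMSO and 6413, 6007, 6169.5, 6168 and 6386 with GSK2830371. The 3 groups were fully separate. The log2 change against control was 1.51 ± 0.15 with DMSO (adjusted p = 2.47e-06) and 2.03 ± 0.15 with GSK2830371 (adjusted p = 1.75e-07). Serpini1 encodes neuroserpin, which inhibits tissue plasminogen activator. It stood at 194, 148, 232 and 139 in controls. It stood at 540.5, 666, 508, 333 and 503 with DMSO and at 672, 740.4, 833, 619 and 683 with GSK2830371. Both i-TERTci groups lay above the controls and overlapped each other. Serpini1 rose by 1.51 ± 0.21 (adjusted p = 4.99e-05) and 2.01 ± 0.21 (adjusted p = 4.54e-06).

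Of 13 genes of fibrinolysis and plasminogen activation, 7 rose and 1 fell with DMSO, and 6 rose with GSK2830371 (61.5% and 46.2%). The fibrinogen chains led them, with Fgg up by 6.45 (adjusted p = 0.000222) and 5.86, and Fgb up by 5.59 (adjusted p = 0.000656) and 4.87. Anxa2, a plasminogen receptor on cells, rose by 1.64 (adjusted p = 0.00055) and 1.56. Plat, the tissue plasminogen activator that Serpine2 and Serpini1 inhibit, rose by 1.18 and 1.07, and Plau, the urokinase gene, changed by -0.59 (adjusted p = 0.368) and -0.96 (adjusted p = 0.148); these 2 were chosen after their values were seen.

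Serpinf1 and Serpinf2 lie side by side on chromosome 11. Serpinf2 encodes the plasmin inhibitor alpha-2-antiplasmin and is made in liver and kidney. Normalised reads were 6498, 6782, 4148 and 7698 in controls. They were 15672, 3439, 8306, 19612 and 2168 with DMSO and 11543, 3795, 4491, 4433 and 5236 with GSK2830371. The 5 Y-positive i-TERTci kidneys lay between 5236 and 19612, and the 5 Xist-positive ones between 2168 and 4491, so the 2 sets did not overlap. The log2 change over all kidneys was 0.23 ± 0.56 (interval -0.97 to 1.43) and -0.18 ± 0.56 (interval -1.39 to 1.02). Among Xist-positive kidneys, as all controls were, it was -1.16 (adjusted p = 0.00774) with DMSO and -0.52 (adjusted p = 0.0941) with GSK2830371.

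Serpinf1 encodes pigment epithelium-derived factor, which has no inhibitory activity. It stood at 320.0, 203, 129 and 194 normalised reads in controls. It stood at 159.6, 402, 214, 163 and 469.6 with DMSO and at 295, 692, 423, 417 and 466 with GSK2830371. Control replicate 1 lay above GSK2830371 replicate 1 and below the other 4. Serpinf1 changed by 0.33 ± 0.36 with DMSO (interval -0.42 to 1.09) and 1.13 ± 0.36 with GSK2830371 (adjusted p = 0.0165), and the latter was 0.92 (adjusted p = 0.0612) without control replicate 3 and 0.89 (adjusted p = 0.136) in kidneys of 31 days or fewer. In the DMSO group the 2 Xist-positive kidneys were the 2 highest, and among Xist-positive kidneys the DMSO change was 1.11 (adjusted p = 0.0284).

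Among the coagulation regulators, Serpinc1 (antithrombin) and Serpind1 (heparin cofactor II) did not pass. Serpinc1 stood at 57.2, 122, 46.1 and 62.4 normalised reads in controls, 322, 60.5, 67.7, 130.0 and 94.4 with DMSO, and 128, 37.7, 180.4, 60.6 and 96 with GSK2830371. Its log2 change was 0.71 (interval -0.37 to 1.79) and 0.38 (interval -0.70 to 1.46). Exons of Zbtb37 on the opposite strand overlap those of Serpinc1, so its reads may include some of that gene. Serpind1 stood at 22, 36.2, 20.1 and 40 in controls, 39.9, 20.2, 28.7, 15.9 and 72.9 with DMSO, and 13.5, 20.3, 22.7, 37.2 and 5.01 with GSK2830371. It changed by 0.11 (interval -0.99 to 1.22) and -0.74 (interval -1.84 to 0.37); in kidneys of 31 days or fewer the second value was -1.64 (adjusted p = 0.0398). All 3 groups overlapped for both genes. Of 12 coagulation proteases and cofactors 3 rose in each comparison and none fell (25%, against 48.3% and 46.3% of all genes called and 25.2% and 24.3% higher). They were Pros1, which encodes protein S, by 2.24 (adjusted p = 2.3e-06) and 2.33, Procr, the protein C receptor, by 2.01 (adjusted p = 0.00328) and 1.24, and Tfpi, the tissue factor pathway inhibitor, by 0.50 (adjusted p = 0.0398) and 0.58.

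Serping1, the C1 inhibitor of the complement and contact systems, stood at 8068, 8476, 5405 and 7557 normalised reads in controls. The values were 9122, 12529, 13563, 5681 and 7066 with DMSO and 13264, 13815, 9889, 8077 and 14899 with GSK2830371. GSK2830371 replicate 4 lay within the control range, as did DMSO replicates 4 and 5. The log2 change was 0.32 ± 0.26 (interval -0.23 to 0.87) with DMSO and 0.68 ± 0.26 with GSK2830371 (adjusted p = 0.0408), and the latter was lost in 9 of 25 alternatives, among them leaving out any 1 control or GSK2830371 replicate 1, 2 or 5 (0.54 to 0.76, adjusted p 0.0516 to 0.129). The other 2 were Xist as a covariate (0.61, adjusted p = 0.093) and Xist-positive kidneys alone (0.52, adjusted p = 0.127). Of 8 tested complement C1 and lectin pathway genes, 4 rose and 1 fell with DMSO, and 6 rose and 1 fell with GSK2830371 (62.5% and 87.5%). C1s1, a protease that Serping1 inhibits, rose by 1.21 (adjusted p = 0.000277) and 1.51, C1ra by 1.01 (adjusted p = 0.00714) and 1.32, and C1qa, a macrophage product, by 2.07 (adjusted p = 0.00456) and 2.10. Masp2 fell, at -1.21 and -1.33.

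Serpinh1 encodes the collagen chaperone of the endoplasmic reticulum and did not pass. It stood at 6256, 6533, 5011 and 5996 normalised reads in controls, 2406, 8693, 3507, 4966 and 4072 with DMSO, and 4330.2, 5772, 2904, 7493 and 3597 with GSK2830371. Both i-TERTci groups spread to either side of the controls. The log2 change was -0.46 ± 0.32 (interval -1.13 to 0.21), or -0.71 (adjusted p = 0.045) without DMSO replicate 2, and -0.38 ± 0.32 (interval -1.05 to 0.29). Of 20 collagen and collagen-folding genes 8 rose and 1 fell in each comparison (45%, where 48.3% and 46.3% of all genes passed). Ppib, a proline isomerase, rose by 1.52 (adjusted p = 4.92e-05) and 1.72, and P4ha2, a collagen hydroxylase, by 1.22 (adjusted p = 0.00025) and 1.21. The collagen hydroxylase P3h2 fell, at -1.79 (adjusted p = 9.86e-05) and -1.79.

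Other inhibitor families and the receptors that clear serpin complexes were listed for comparison. Of 18 protease inhibitors outside the serpins, 11 rose and 2 fell with DMSO, and 12 rose and 2 fell with GSK2830371 (72.2% and 77.8%). Spink1, a trypsin inhibitor, rose by 2.57 (adjusted p = 6.93e-07) and 2.25, Timp1, a metalloprotease inhibitor, by 5.39 (adjusted p = 2.97e-05) and 5.06, and Cstb, a cathepsin inhibitor, by 1.75 (adjusted p = 7.42e-05) and 1.44. Of 10 endocytic receptor genes, 2 rose and 1 fell with DMSO, and 2 rose and 2 fell with GSK2830371 (30% and 40%, below the 48.3% and 46.3% of all genes). Sorl1 rose by 1.19 (adjusted p = 0.000219) and 1.28, Vldlr rose by 0.54 (adjusted p = 0.0317) and 0.83, and Lrp2, the megalin of the proximal tubule, fell, at -1.71 (adjusted p = 0.019) and -1.74. Of 10 epithelial and trypsin-like serine proteases, 5 rose and 2 fell with DMSO, and 4 rose and 2 fell with GSK2830371 (70% and 60%). Prss8, the channel-activating protease prostasin, fell, at -2.17 (adjusted p = 2.96e-06) and -1.93, Prss35 fell, at -6.67 (adjusted p = 0.00061) and -5.51, and Htra1 rose by 1.73 (adjusted p = 2.59e-05) and 1.91.

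**Figure D4:**
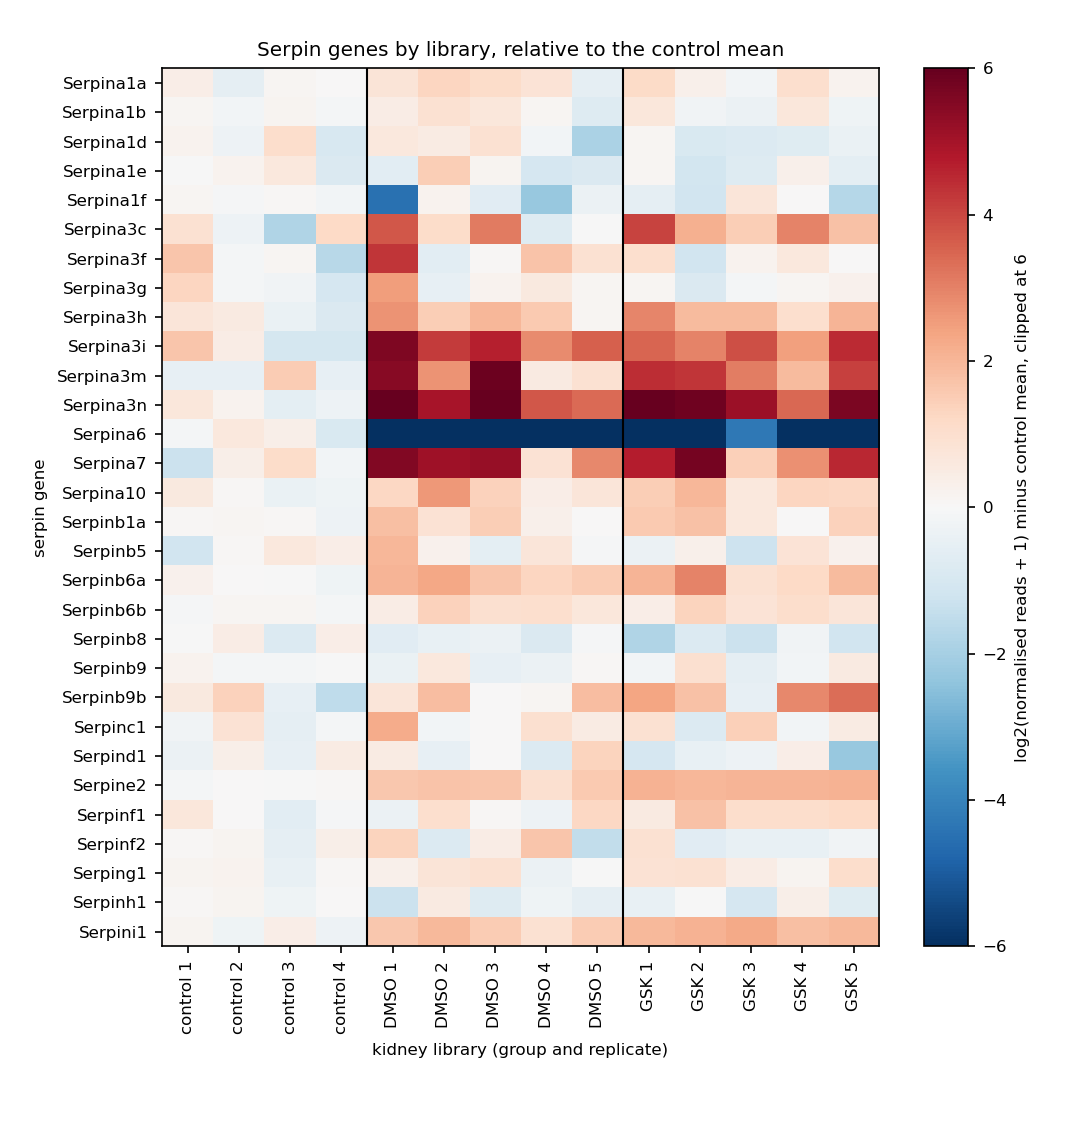
Colour gives log2(normalised reads + 1) minus the control mean, clipped at 6, for 30 serpins (y axis, by clade) in each of 14 kidneys (x axis). Serpina6 is dark blue in the 10 i-TERTci kidneys, palest in GSK2830371 replicate 3, and Serpine2 and Serpini1 are red in all 10, while Serpinf2 and Serpina1f differ in sign between kidneys of 1 group.

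The kidneys differed along a shared line for a few serpins. Over the 10 i-TERTci libraries, log2 Serpina3n was set against each of the 30 other tested serpins. For Serpina3m Pearson r was 0.96 (permutation p = 8e-05, adjusted 0.0024) and Spearman rho 0.95 (permutation p = 0.00016, adjusted 0.0048). For Serpinb1a r was 0.94 (permutation p = 0.00026, adjusted 0.0039) and rho 0.88 (permutation p = 0.00157, adjusted 0.0215). For Serpina3h r was 0.82 (permutation p = 0.00208, adjusted 0.0208) and rho 0.87 (permutation p = 0.00215, adjusted 0.0215). Without the 2 kidneys farthest from the median of Serpina3n, DMSO replicate 5 and GSK2830371 replicate 4, r was 0.98, 0.87 and 0.64. No other serpin had an adjusted permutation p under 0.05. Each treatment group and each sex call holds only 5 of these kidneys, too few for a value within it.

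GSK2830371 was set against DMSO within i-TERTci mice to ask what WIP1 inhibition did to these genes. No serpin and none of the 18810 genes passed in limma (percentage called 0). At an unadjusted p under 0.05 limma had 3 of 31 serpins, Serpine2, Serpinf1 and Serpini1, and 800 of all genes (4.25%). edgeR called no gene and had 4 serpins unadjusted, with 871 of all genes (4.63%). DESeq2 called 1 gene, which was not a serpin, and had 6 serpins unadjusted, with 1016 of all genes (5.41%). Serpine2 was higher in all 5 GSK2830371 kidneys than in any DMSO kidney, the one serpin of 31 (3.23%) without overlap, as were 91 of all genes (0.484%). Its difference was 0.53 ± 0.14 on the log2 scale (interval 0.23 to 0.83, limma unadjusted p = 0.00162, adjusted p = 0.994). Serpini1 differed by 0.50 (interval 0.08 to 0.93) and Serpinf1 by 0.80 (interval 0.09 to 1.51), with the same adjusted p. These intervals are not corrected for the number of genes.

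Some serpins with large changes against control had wide intervals between the treatments. Serpina3n differed by 0.24 (interval -1.17 to 1.65), Serpina3i by -0.72 (interval -2.003 to 0.56), Serpina6 by 1.62 (interval -0.62 to 3.86) and Serpina7 by -0.10 (interval -2.10 to 1.91). Narrower intervals were those of Serpinb6b, -0.05 (-0.47 to 0.37), and Serpinb9, 0.23 (-0.33 to 0.80). In kidneys of 31 days or fewer Serpine2 differed by 0.44 between treatments, and in Xist-positive kidneys by 0.38, both with an adjusted p of 1. Of the GSK2830371 group the early subset holds replicates 1 and 5 only. Its Xist-positive kidneys were all taken at 49 days, against 29 and 31 days for those of the DMSO group.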

How the data were processed

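RNA from whole kidneys of 14 mice was sequenced. Per the submitters' processing notes, FastQC, Trimmomatic, STAR, DESeq2 and mm10 were used; the sources used here give no versions, read counter or strand setting. The authors' 2 deposited tables hold signal per gene, which is whole reads divided by 1 size factor per library and table; dividing each column by its smallest step gave whole reads throughout (tolerance 0.001). Genes in both tables (23682) were rescaled together by median-of-ratios size factors, and log2(normalised reads + 1) was fitted by group over 14 libraries with limma 3.58.1 (trend, robust; R 4.3.3), two-sided, Benjamini-Hochberg over the 18810 genes kept by filterByExpr, threshold 0.05. Intervals are 95%. Python 3.11.15 and SciPy 1.17.1 were used for permutations (100000). The fit was tested on simulated data. Alternatives were pseudocounts 0.5 and 5, no filter, TMM, total-read scaling, edgeR 4.0.16 and DESeq2 1.42.0 on the recovered reads, a replicate block, Xist as covariate, Xist-positive or early kidneys only, and leaving out each library. Coordinates and exon lengths are GENCODE M21 (36 of 37 members matched), promoters RefSeq GRCm38.p6. One tested member is included in the counts and is not reported here. The members and lists were chosen with earlier results of these data known. Values in every library are given for called serpins with a group mean of 100 or more and for the highest member per clade, and up to 3 other genes per clade or list by smallest p; Serpina3c, Serpina3f, Serpina3g, Serpina1b and Serpina1f were added after their values were seen, as were the genes named for control replicate 3.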

Additional observations from a re-analysis of the deposited data

Results flagged for a closer look

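Dixon's criterion was applied to 90 sets of 4 or 5 kidneys (30 serpins in 3 groups). In 10 of them the lowest or highest kidney stood apart from its group. Chance alone flags about 1 in 20 only where values are normally distributed. The values used were normalised reads not put on a log scale, and some were very low. The 10 of 90 therefore cannot be compared with that rate, and whether they exceed chance was not tested. DMSO replicate 4 was low for Serpine2, at 2970 normalised reads against 4468 to 4982 in the other DMSO kidneys. DMSO replicate 1 was high for Serpinc1 (322), Serpina3g (423) and Serpina3f (421), whose other DMSO kidneys reached at most 130.0, 109.9 and 68.7. DMSO replicate 2 was high for Serpina10, at 2570, and for Serpina1e, at 45.8. GSK2830371 replicate 1 was high for Serpinf2, at 11500 against 3795 to 5236, and GSK2830371 replicate 3 for Serpina6, at 695 against 8.71 to 192. Among controls, replicate 4 was low for Serpinb1a, at 370 against 474 to 495, and replicate 3 was the one control with Serpina3m reads, at 3.01.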

How the results depend on the processing

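Serpina3n, Serpina3i, Serpina6, Serpina7, Serpina10, Serpinb6a, Serpine2 and Serpini1 kept direction and call against the controls in both comparisons under all 25 alternatives. Among the other serpins named, calls were lost for Serpina3m and Serpina3h (6 alternatives each) with DMSO, and for Serpinb9b and Serping1 (9 each), Serpinb1a (8), Serpina3c (6), Serpinb8 and Serpinf1 (2 each) and Serpinb6b (1) with GSK2830371. Serpins higher with DMSO numbered 8 (Xist as covariate) to 14 (DESeq2), and with GSK2830371 11 to 17. With 1 library left out they numbered 8 to 13 and 11 to 15. Serpins lower with DMSO numbered 2 among Xist-positive kidneys, and 1 to 2 with 1 library left out (2 without control replicate 3 or without DMSO replicate 2, as Serpinb8 or Serpinh1 then passed). Serpins lower with GSK2830371 numbered 1 under total-read scaling, 1 among Xist-positive kidneys, and 3 with no filter and in kidneys of 31 days or fewer. Between the treatments, 1 gene passed in DESeq2 and 2 among Xist-positive kidneys, no serpin among them. None of the 29 called serpin results against the controls changed sign, and 14 of the 33 not called did under some alternative. In 1 of these the value of opposite sign passed the test: Serpinf2, DMSO against control, was -1.16 (adjusted p = 0.00774) among Xist-positive kidneys, against 0.23; the cause was not tested. With the replicate number as a block, all genes called, DMSO against control, numbered 9589, all genes called, GSK2830371 against control, 9248, and 0 passed between the treatments, with 12 and 15 serpins higher and 1 and 2 lower, and Serpinb1a passed with DMSO at 0.96 (adjusted p = 0.0258). Deviations of same-numbered libraries correlated at -0.06 to 0.34, over 0.1 in 4 of 13 pairs. Differently numbered libraries of different groups correlated at -0.46 to 0.38. The labels name no pairing, and as these ranges overlap the values cannot decide whether the numbers pair the kidneys. Members with few reads (Serpina3c, Serpina3h, Serpina3i, Serpina3m, Serpinb9b) are limited by depth, and their fold changes depend on the pseudocount: Serpina3i, DMSO against control, was 2.70 with a pseudocount of 5 and 4.75 with 0.5, and Serpina3m, DMSO against control, 1.83 and 3.74.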

Other observations

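Serpina3e-ps, a pseudogene of the antichymotrypsin-like cluster that the symbol rule leaves out, had 2, 0, 0 and 0 reads in the controls, 34, 25, 63, 3 and 13 with DMSO and 25, 22, 21, 2 and 27 with GSK2830371. Parts of its transcript are shared with Serpina3f, Serpina3g and Serpina3n.

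Among the 6 serpins that did not pass the filter, Serpinb1c had 0 reads in all 4 controls, 1 to 5 in each DMSO kidney (12 in all) and 2 to 8 in each GSK2830371 kidney (19 in all). The counting interval of its ratio to the controls began at 2.07-fold with DMSO and 3.38-fold with GSK2830371, counting error only. Serpinb6c had 0 to 2 reads in a control and 2 to 9 with GSK2830371. Serpinb10 had 6 to 16 reads in a control and 1 to 7 in an i-TERTci kidney, and Serpinb12 had 0 to 4 in any kidney.

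Serpina16 and Serpine3 were listed in 1 of the 2 tables only, with 0 to 5 reads in any of its 9 libraries. Agt, which encodes angiotensinogen, a member of the superfamily by structure that carries another name, had mean levels of 10204 normalised reads in controls, 9387 with DMSO and 12379 with GSK2830371, and passed no test.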
